A study of Rattus norvegicus with 4 samples.

Results

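Extracellular matrix and basement membrane genes were followed in RNA-seq of the adult rat hippocampus, 40 days after the end of chronic exposure to the antidepressant fluoxetine. The 8 genes are Col6a1, Col8a2, Lama1, Frem3, Tnn, Cthrc1, Dcn and Mmp16. They were chosen by name from a deposited table that lists only transcripts selected on the difference between fluoxetine and vehicle in the same 4 samples, so their differences are given as a description and no test is made of them. Together they hold 16 of the 830 listed transcripts and are 8 of the 474 genes that the table lists with an identifier of their own.

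The samples came from male Wistar rats in 2 groups of 2 samples, and each sample was hippocampal tissue pooled from 2 rats. Fluoxetine-exposed rats received 12 mg/kg per day by oral gavage from postnatal day (PND) 67 to 88, and vehicle-exposed rats received 1% methylcellulose. The authors dissolved fluoxetine in distilled water and describe methylcellulose as the constituent of the fluoxetine pills, so it was not particular to the vehicle rats. Both groups were killed at PND 128. Fluoxetine blocks the serotonin transporter and so the reuptake of serotonin. Each pool holds different rats, but the spread within a group rests on 2 pools, and differences between the rats of a pool cannot be seen.

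The library totals behind the values ran from 12512582 to 14080346 reads. Counts summed over listed transcripts came to 1.03 to 1.17% of these totals. A read can count for several transcripts, so the share of library reads is smaller. Of 17 markers of hippocampal neurons, the table lists Wfs1 and Pou3f1, both read in all 4 samples. The other markers are not in the table and were not analysed here, so the tissue label could be checked only this far.

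The extracellular matrix is the network of secreted proteins and sugars between cells. In the brain, its fibrillar collagens and basement membranes lie mainly in the meninges and around blood vessels, where laminins and collagens form sheets that cells bind through integrins and dystroglycan. Between neurons the matrix is richer in proteoglycans and tenascins, and metalloproteinases at the cell surface cut it. Matrix proteins are also made by neurons and glia.

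Of the 8 genes, 6 were lower in both fluoxetine samples than in both vehicle samples (Col6a1, Lama1, Frem3, Tnn, Cthrc1 and Mmp16), and Col8a2 and Dcn were higher in both. The groups thus did not overlap at any of the 8 genes. By the same count, 36.3% of the 474 genes were higher without overlap and 39.0% were lower without overlap. Since the selection used this contrast, nothing is read from these shares. Reads of a gene are given below as counted, and levels as reads per 10000000 library reads (RP10M) with mean ± SD. In bulk tissue, fewer cells of a type and less RNA per cell cannot be told apart.

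**Figure D1:**
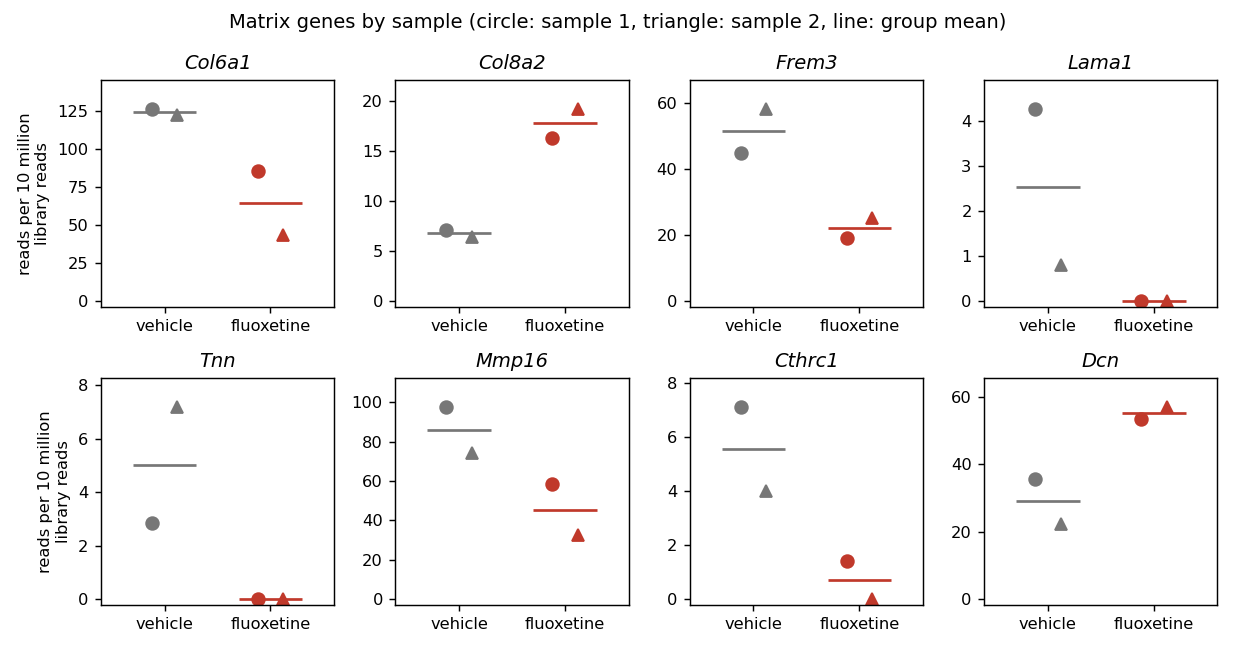
Level of each of the 8 genes (reads per 10000000 library reads) in each of the 4 samples, as a circle for sample 1, a triangle for sample 2 and a line for the group mean, with 1 panel and axis a gene. Both fluoxetine points lie below both vehicle points for Col6a1, Lama1, Frem3, Tnn, Cthrc1 and Mmp16, and above them for Col8a2 and Dcn.

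Col6a1 encodes a chain of collagen VI, which forms beaded microfibrils next to basement membranes. It was counted on a single gene model named by a mouse transcript (ENSMUST00000137599), with 12 exons and 913 bases on the plus strand of chromosome 20 from 12326988 to 12331421 (build rn4). Fluoxetine samples 1 and 2 had 120 and 59 reads, and vehicle samples 1 and 2 had 177 and 153. The vehicle samples lay close together and above both fluoxetine samples, of which sample 2 was the lowest. The level was 64.4 ± 29.4 (SD, n = 2) in the fluoxetine group and 124 ± 2.86 (SD, n = 2) in the vehicle group, 1.92-fold lower with fluoxetine, at a log2 difference of -0.95 with a standard error of 0.56. The fluoxetine samples differed from each other 1.95-fold, as much as the groups did, and the vehicle samples 1.03-fold. Without fluoxetine sample 1 the log2 difference was -1.51, and without fluoxetine sample 2 it was -0.54. Parts of the gene outside this model were not analysed here.

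Col8a2 encodes a chain of collagen VIII, a short-chain collagen that forms lattices in the Descemet membrane of the cornea and occurs in vessel walls. Of its 3 listed models on the plus strand of chromosome 5, a pair shares all 4 counts (XM_233542 and XM_001057987, 145679681 to 145684323, 2 exons, 4063 bases). This pair had 23 and 26 reads in the fluoxetine group (samples 1 and 2) and 10 and 8 in the vehicle group. Both fluoxetine samples were higher, with little spread inside either group. The level was 17.8 ± 2.06 (SD, n = 2) with fluoxetine and 6.77 ± 0.526 (SD, n = 2) with vehicle, 2.62-fold higher, at a log2 difference of 1.38 with a standard error of 0.58. The RefSeq model NM_199473 starts further upstream (145657652 to 145684209, 4 exons, 4144 bases) and had 22, 28, 7 and 8 reads in the same order of samples. Its log2 difference was 1.66 with a standard error of 0.60, so both kinds of model gave the same direction. With 67 reads over the 4 samples, Col8a2 ranked 239 of 474 genes by reads, close to the table's median of 69.5 reads.

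Lama1 encodes the alpha 1 chain of laminin, the trimer that builds the first sheet of a basement membrane. Its model (ENSMMUT00000015974, named by a macaque transcript) has 13 exons and 1996 bases on the plus strand of chromosome 9 from 106877683 to 106911340. No read was counted in either fluoxetine sample, and 6 and 1 reads were counted in vehicle samples 1 and 2. The groups did not overlap, but vehicle sample 2 was a single read away from the fluoxetine samples. The vehicle level was 2.54 ± 2.46 (SD, n = 2). Against a floor of 3 reads over the fluoxetine group, and with the vehicle reads taken as exact, Lama1 was at least 2.43-fold lower. This bound leaves out the counting error of the vehicle reads. Without vehicle sample 2 that bound was 3.94-fold, and without vehicle sample 1 only 1 vehicle read remained, which allows no fold change. With a single fluoxetine sample kept, the floor weighs more and the bound was 1.19-fold (sample 2 kept) or 1.24-fold (sample 1 kept). Lama1 ranked 443 of 474 genes by reads, and its difference rests on vehicle sample 1.

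Frem3 encodes a large secreted protein of the FRAS1 and FREM family, whose members lie in the basement membrane of epithelia. The model ENSRNOT00000068300 has 3 exons and 4366 bases on the minus strand of chromosome 19 from 29212409 to 29217064. Its reads were 27 and 34 with fluoxetine and 63 and 73 with vehicle, sample 1 before sample 2. Both fluoxetine samples were lower, by a gap wider than that inside either group, and the samples of a group differed 1.31-fold with fluoxetine and 1.30-fold with vehicle. The level was 22.2 ± 4.23 (SD, n = 2) against 51.7 ± 9.46 (SD, n = 2), 2.32-fold lower with fluoxetine, at a log2 difference of -1.22 with a standard error of 0.54. With each sample left out in turn, the log2 difference stayed between -1.42 and -1.02.

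Tnn encodes tenascin N (also tenascin W), a matrix glycoprotein known from bone and from stem cell niches. Its 3 models lie on the minus strand of chromosome 13. The longest, NM_001107189, has 22 exons and 5783 bases from 75502879 to 75570266. Like Lama1, Tnn had no read in either fluoxetine sample, while vehicle samples 1 and 2 had 4 and 9 reads on this model. Its vehicle level was 5.02 ± 3.07 (SD, n = 2). Against the same floor, and with the vehicle reads taken as exact, Tnn was at least 4.51-fold lower with fluoxetine. The bound was 6.62-fold without vehicle sample 1 and 2.63-fold without vehicle sample 2, and 2.21-fold and 2.30-fold without fluoxetine samples 1 and 2. A shorter model (ENSRNOT00000003452, 19 exons, 5013 bases) had the same counts. The model of 4269 bases (ENSRNOT00000003454) shares the boundary at 75570266 but reaches only to 75521449 at its 3′ end. On it, vehicle sample 1 had 0 reads as well and vehicle sample 2 had 9, so there the groups overlapped.

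Cthrc1 encodes a secreted protein with a short collagen repeat, known from injured arteries and linked to Wnt signalling. On its RefSeq model (NM_172333, chromosome 7, plus strand, 74630044 to 74640324, 4 exons, 1214 bases), fluoxetine samples 1 and 2 had 2 and 0 reads and vehicle samples 1 and 2 had 10 and 5. Both vehicle samples were above both fluoxetine samples. The level was 0.710 ± 1.00 (SD, n = 2) against 5.57 ± 2.22 (SD, n = 2). The ratio of vehicle to fluoxetine was 7.80, with an exact 95% interval of 1.81 to 70.3 that covers counting error only. The shorter models of 994 and 902 bases gave ratios of 12.5 (1.85 to 534) and 10.4 (1.48 to 452) from 1 fluoxetine read each. Without fluoxetine sample 2 the ratio on the RefSeq model was 3.98 (0.926 to 35.9), without vehicle sample 1 it was 5.51 (0.903 to 57.9), and without vehicle sample 2 it was 9.85 (2.10 to 92.4). Without fluoxetine sample 1 no fluoxetine read remained, and by a bound like that of Tnn, Cthrc1 was at least 2.55-fold lower. The size is thus poorly set by these reads, and in the first 2 of these cases the interval reaches below 1.

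Dcn encodes decorin, a small leucine-rich proteoglycan that binds collagen fibrils and growth factors of the TGF-beta family, and a common marker of fibroblasts. Its model NM_024129 has 8 exons and 1618 bases on the plus strand of chromosome 7 from 35004234 to 35045191. Fluoxetine samples 1 and 2 had 75 and 77 reads, and vehicle samples 1 and 2 had 50 and 28. Here the fluoxetine samples were the close pair, 1.07-fold apart, and the vehicle samples lay further apart, at 35.7 and 22.4 RP10M. The level was 55.1 ± 2.63 (SD, n = 2) against 29.0 ± 9.41 (SD, n = 2), 1.87-fold higher with fluoxetine, at a log2 difference of 0.92 with a standard error of 0.54. Without vehicle sample 1 the log2 difference was 1.30, and without vehicle sample 2 it was 0.63. Of 26 markers of meningeal and perivascular fibroblasts Dcn alone is in the table, and 0 of 25 endothelial and mural markers on the list used are in it. Their part in the result was not tested.

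Mmp16 encodes a membrane-anchored metalloproteinase (MT3-MMP) that is expressed in brain and activates proMMP2. Its 3 models lie on the plus strand of chromosome 5. The 2 of 2968 bases (ENSRNOT00000050137 and ENSRNOT00000055458, 32458991 to 32586469) share all counts, and the RefSeq model NM_080776 of 2389 bases and 6 exons, which starts at 32515258, held 96.9% of their reads. On the longer models, fluoxetine samples 1 and 2 had 82 and 44 reads, and vehicle samples 1 and 2 had 137 and 93. Fluoxetine sample 1 came near vehicle sample 2, at 58.2 against 74.3 RP10M. The level was 45.4 ± 18.2 (SD, n = 2) against 86.1 ± 16.6 (SD, n = 2), 1.90-fold lower with fluoxetine, at a log2 difference of -0.92 with a standard error of 0.56. The fluoxetine samples differed 1.79-fold from each other, close to the difference between the groups. The log2 difference was -1.40 without fluoxetine sample 1 and -0.56 without fluoxetine sample 2.

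**Figure D2:**
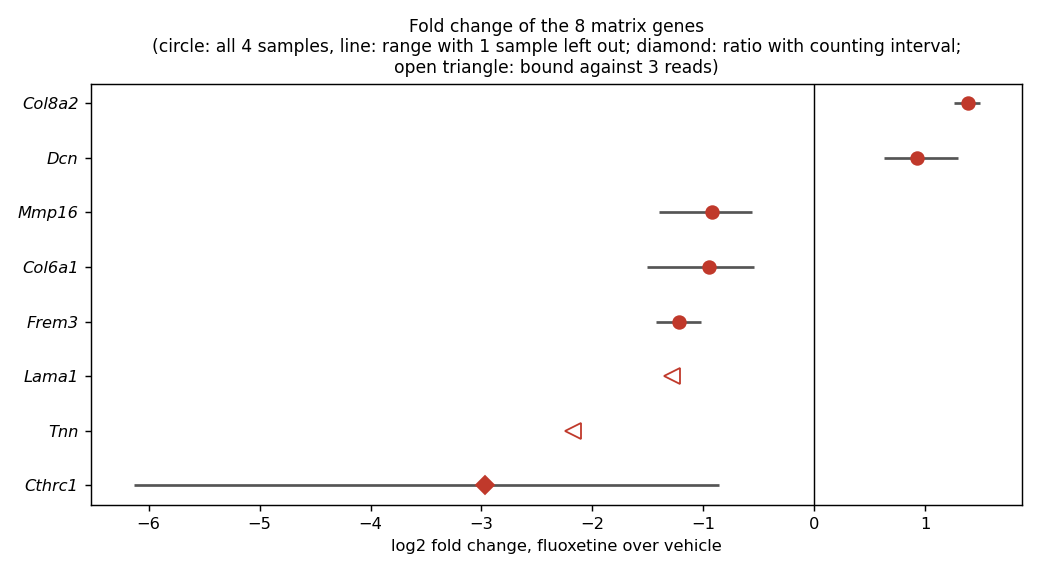
Log2 fold change, fluoxetine over vehicle, of the 8 genes, with circles for the fit of all 4 samples and lines for the range with 1 sample left out, a diamond with its exact 95% counting interval for Cthrc1, and open triangles for the bounds of Lama1 and Tnn against 3 reads. No line reaches 0, and since the groups do not overlap, a fit with 1 sample left out could not reach it. The lines of Frem3 (-1.42 to -1.02) and Col8a2 (1.26 to 1.49) are the shortest.

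Over the 8 genes the median log2 difference was -1.08, beside 0.66 over all 474 genes, 1.31 over the 258 higher genes and -2.07 over the 216 lower genes. In the median of the 8 genes, Lama1 and Tnn stand at their bounds, and with fitted values it was also -1.08. It joins 6 lower and 2 higher genes, and the other medians use fitted values throughout. It is thus not a like measure to the median of the lower genes alone. Reads of the 8 genes summed to 234 and 178 RP10M in the fluoxetine group (samples 1 and 2) and to 326 and 296 in the vehicle group. Both vehicle sums were higher, and Col6a1 and Mmp16 carry most of them. Fluoxetine sample 2 was the lowest of the 4 at Col6a1 and Mmp16, whereas at Frem3, Col8a2 and Dcn it was above fluoxetine sample 1.

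Levels were compared between genes with the deposited normalized expression (NE) value, a read density per base of transcript and size of the data set. In the vehicle group the order of mean NE was Col6a1 (0.136), Mmp16 (0.0290), Dcn (0.0179), Frem3 (0.0118), Cthrc1 (0.00459), Col8a2 (0.00167), Lama1 (0.00128) and Tnn (0.000865). Single samples of neighbours in this order overlapped for Col8a2 and Lama1 and for Lama1 and Tnn. Dcn, at NE 0.0138 in its lower vehicle sample, lay just above Frem3, at NE 0.0134 in its higher one. By the density of its 913-base model, Col6a1 thus stood well above the other 7 genes. A listed model can cover only a part of a gene, so this is an order of listed models. Lama1, Tnn and Cthrc1 rest on the fewest reads, with 7, 13 and 17 over the 4 samples, and Col8a2 had 67.

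In the fluoxetine group the order of mean NE was Col6a1 (0.0706), Dcn (0.0341), Mmp16 (0.0153), Frem3 (0.00508), Col8a2 (0.00438) and Cthrc1 (0.000585), with Lama1 and Tnn listed at 0. Col6a1 led in both groups. Dcn stood above Mmp16 with fluoxetine and below it with vehicle, and Col8a2 stood above Cthrc1 with fluoxetine and below it with vehicle. Frem3 and Col8a2, far apart with vehicle, overlapped with fluoxetine.

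**Figure D3:**
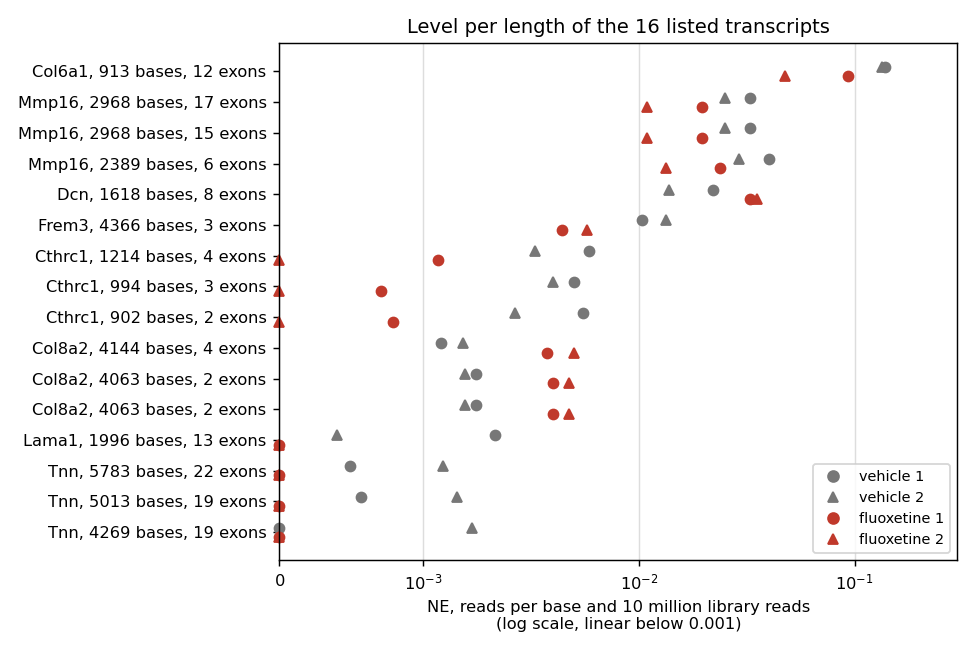
Deposited NE value (reads per base and 10000000 library reads, log axis, linear below 0.001) of the 16 listed transcripts in each of the 4 samples, vehicle in grey and fluoxetine in red. Col6a1 is highest in both groups (mean NE 0.136 and 0.0706), and Dcn and Mmp16 stand in opposite order in the groups.

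Lists of matrix genes place these values among the rest of the matrix. Of 260 genes on 6 lists (collagens, basement membrane glycoproteins, other glycoproteins, proteoglycans, proteases with crosslinkers, and receptors), 16 are in the table, 13 lower and 3 higher. Without the 8 genes above, 8 of 252 are in it, 7 lower and 1 higher. The whole table holds 216 lower and 258 higher genes of 474, and it was selected on the same contrast, so nothing particular to the matrix is read from these counts. Of 28 matrix receptors such as the integrins, 0 are listed. Genes that are not in the table were not analysed here.

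Among the crosslinking enzymes, Loxl2, a lysyl oxidase, had 9 and 2 reads with fluoxetine (samples 1 and 2) and 12 and 22 with vehicle. Plod2, which hydroxylates collagen lysines, had 0 and 2 reads against 11 and 5, a ratio of 8.32 (exact 95% interval 1.96 to 74.6). Both were lower in both fluoxetine samples. Col13a1, a transmembrane collagen, had 8 and 2 reads against 11 and 20. The proteoglycan Cspg4 (NG2), carried by oligodendrocyte precursors and pericytes, had 4 and 1 reads against 12 and 11. These 2 genes also had both vehicle samples above both fluoxetine samples. Chad, a cartilage protein that binds collagen, had 1 and 1 reads against 6 and 8. Frem1, of the same family as Frem3, had 0 and 2 reads against 5 and 8, and the metalloproteinase Mmp11 had 0 and 2 against 4 and 9. None of the 7 had more than 34 reads in either group.

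The gene with the higher fluoxetine mean was Nov, a secreted CCN protein made by hippocampal neurons, with 465 and 1323 reads under fluoxetine and 326 and 698 under vehicle. Sample 2 was the higher one in both groups, and vehicle sample 2 was above fluoxetine sample 1, so the groups overlapped. The mean level was 1.68-fold higher with fluoxetine, a direction that rests on fluoxetine sample 2: fluoxetine sample 1 alone, at 330 RP10M, lay below the vehicle mean of 395. Wfs1 and Pou3f1, the hippocampal neuron markers in the table, were also highest in fluoxetine sample 2, and their summed level was 3559 and 8451 RP10M with fluoxetine and 3159 and 4437 with vehicle. Their part in the result was not tested.

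**Figure D4:**
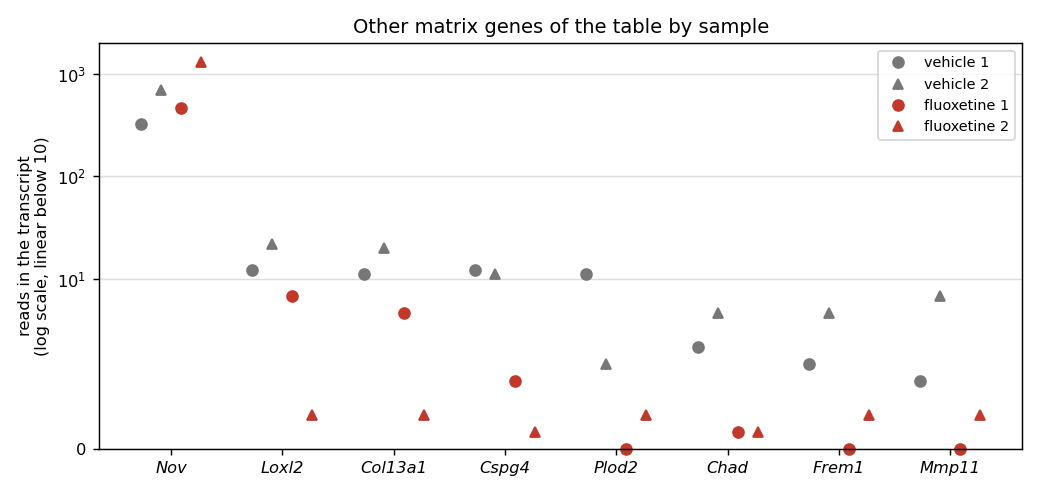
Reads in the transcript (log axis, linear below 10) of the 8 other matrix genes of the table in each of the 4 samples. The groups overlap at Nov alone, where sample 2 is the higher one of either group, and the other 7 genes are lower in both fluoxetine samples.

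Markers of the choroid plexus and ependyma, cells next to the hippocampus, were followed beside these genes. Of 20 such markers 3 are in the table. Trpm3 had 12 and 11 reads with fluoxetine against 31 and 29 with vehicle, a level 2.71-fold lower with fluoxetine. Clic6 had 0 and 0 reads against 1 and 5, whereas Kl had 6 and 2 against 0 and 0. The summed level of the 3 was 12.8 and 9.62 RP10M with fluoxetine and 22.8 and 27.2 with vehicle. Trpm3 held most of this sum, at 8.52 and 8.14 RP10M with fluoxetine and 22.1 and 23.2 with vehicle. Kl went the other way, so the sum mainly describes Trpm3. The defining markers of these cells, such as Ttr, are not in the table, and the part of these cells in the result was not tested.

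For the 4 genes of the 8 with the most reads, the genes most like them across the 4 samples were found by the root mean square difference of log2 levels, each centred on its own mean, among 203 genes. For Col6a1 these were Fstl4 (0.061), Pkib (0.084) and Unc5d (0.142), and for Mmp16 they were the same 3, at 0.165, 0.211 and 0.171. For Frem3 they were Sox13 (0.075), Slc4a11 (0.081) and Shox2 (0.139). For Dcn they were Nt5e (0.086), Gmps (0.089) and Gpcpd1 (0.117). The measure rests on 4 samples that also chose the genes, so it describes likeness only. Col6a1 and Mmp16, with their low fluoxetine sample 2, thus share their neighbours, and Frem3 has others.

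The promoters of 5 genes (Col6a1, Col8a2, Lama1, Frem3 and Tnn) were found in a RefSeq table of build GRCr8, and Mmp16, Dcn and Cthrc1 were not in it. The 250 bases before the start of 3 of them are printed 5′ to 3′ because these genes differ in level and in direction. Col6a1 has the highest read density on its listed model, Col8a2 is higher with fluoxetine, and Tnn had no read with fluoxetine. They lie at chr20:11905440-11905689 (plus strand), chr5:143870519-143870768 (plus strand) and chr13:74919790-74920039 (minus strand). Of 5 motifs searched on both strands, capitals mark the AP-1 site TGANTCA in Col6a1, the GC box GGGCGG in Col8a2 and the element CCAAT in Tnn, and the others were the Smad element CAGAC and the TATA box motif TATAAA.
Col6a1: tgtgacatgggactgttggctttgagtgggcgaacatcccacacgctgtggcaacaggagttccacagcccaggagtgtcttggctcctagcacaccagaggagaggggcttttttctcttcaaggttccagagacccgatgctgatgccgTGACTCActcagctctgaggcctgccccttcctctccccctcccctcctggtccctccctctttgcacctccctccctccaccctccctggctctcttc
Col8a2: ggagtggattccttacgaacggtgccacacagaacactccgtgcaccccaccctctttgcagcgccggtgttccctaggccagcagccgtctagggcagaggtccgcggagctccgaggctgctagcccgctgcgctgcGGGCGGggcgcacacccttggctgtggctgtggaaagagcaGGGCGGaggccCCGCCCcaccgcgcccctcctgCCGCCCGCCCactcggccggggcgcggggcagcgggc
Tnn: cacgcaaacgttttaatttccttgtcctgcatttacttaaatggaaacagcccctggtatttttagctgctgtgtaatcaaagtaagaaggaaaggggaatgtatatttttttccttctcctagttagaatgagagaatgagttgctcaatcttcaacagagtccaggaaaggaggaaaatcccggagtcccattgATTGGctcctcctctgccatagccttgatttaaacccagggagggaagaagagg

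The promoters differed in base composition. GC content was 73.2% for Col8a2, 60.0% for Col6a1, 56.4% for Frem3, 44.8% for Lama1 and 42.4% for Tnn, and the median of 33469 rat promoters was 51.2%. Col8a2 held 25 CG dinucleotides against 3 for Tnn. In the printed windows, Col8a2 held 5 matches to the GC box, the last 2 overlapping, which 30.5% of all promoters hold at least once. Col6a1 held an AP-1 match 99 bases before the start, found in 6.34% of promoters, and Tnn a CCAAT match on the opposite strand at 54 bases, found in 34.0%. Frem3 also held CCAAT on the opposite strand, at 49 bases, and Lama1 held CAGAC at 44 bases, found in 42.9%. None of the 5 held TATAAA, which 12.9% of promoters hold. Thus the 4 lower genes with a promoter shared no motif of the 5, except CCAAT in Frem3 and Tnn. Such matches are letters in a window and not sites of binding. In rn4, Mmp16 and Col8a2 both lie on chromosome 5, 113 Mb apart, and Dcn and Cthrc1 on chromosome 7, 39.6 Mb apart, and in each pair the genes differed in direction.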

How the data were processed

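Poly(A) RNA from 4 hippocampal samples was sequenced by the authors with an Illumina Genome Analyzer IIx to single reads of 36 bp. They aligned to build rn4 (also in the submitters' processing notes), dropped reads that matched several places, and deposited for each transcript a count of its exonic reads from Genomatix software. The deposited NE value is a signal, which the authors divided by transcript length and data set size. Transcripts were deposited only where DESeq p was under 0.05 and fold change over 1.5. The authors' own p-values, adjusted p-values and log2 fold changes in the table were not used. The strand setting of the counting is not given in the sources used. A read can count for several models, and 263 of 830 transcripts share all 4 counts with another.

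Columns were matched to samples by group and number. Library totals were worked back from NE, assuming its constant is 10000000, which returned every NE to within 5.2e-06. They scaled the counts in edgeR 4.0.16 (R 4.3.3, glmQLFit, all 4 samples, treatment as the only term, no filter on low counts). The standard error is the log2 difference over the square root of F. It rests on a dispersion shared in part over all listed transcripts, so it does not measure the replicate spread of a gene alone. The median fold changes of the fit, but not its standard errors, were tested on simulated counts, for well-read transcripts only. The depth of Lama1, Tnn, Cthrc1 and Col8a2 was not covered. A group at 0 reads gives a bound against 3 reads over the group, and a group of 1 to 3 reads gives a ratio with an exact 95% binomial interval. The bound takes the reads of the other group as exact, and the interval covers counting error only. Neither covers differences between pools. Alternatives were edgeR TMM, DESeq2 1.42.0, scaling by listed reads, a minimum of 10 reads, a prior count of 2, a replicate block, mean NE over transcripts, and each sample left out. Python 3.11.15 with pandas 2.3.3, scipy 1.17.1 and matplotlib 3.10.9 made the rest.

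A gene stands at its listed transcript with the most reads over the 4 samples. In gene counts, 69 transcripts without a gene and 12 with 2 genes were left out. The text names all 8 genes, every other gene of the matrix and marker lists in the table, and the 3 genes most like each of the 8 with at least 100 reads. The members and lists were chosen with earlier results of these data known. Promoters are RefSeq sequences of build GRCr8.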

Additional observations from a re-analysis of the deposited data

How the results depend on the processing

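The median log2 difference of the 8 genes, -1.08, was -1.12 with the replicate block, -1.19 with edgeR TMM, -1.14 with DESeq2, -1.21 with scaling by listed reads, -0.95 with at least 10 reads (which drops Lama1 and leaves 7 genes, 5 lower), -1.05 with a prior count of 2 and -1.08 with mean NE. With 1 sample left out it ran from -1.45 to -0.99 on fitted values, where genes with a group at 0 reads also entered at their fitted value. With groups at 0 reads at their bounds it ran from -1.09 to -0.55, and there a lone sample raises the floor of 3 reads. In these, 6 of the 8 genes were lower except under the 10-read minimum. Of 65 values of single genes under alternatives, 60 moved by less than the spread between replicates, 5 by more, and 0 reversed. With 2 pools in a group, leaving out 1 shifts the mean log2 level by no more than this spread. For the values with 1 sample left out, the size of the move was thus largely fixed in advance. Since the groups do not overlap at any of the 8 genes, leaving out 1 sample could not reverse a direction. Cthrc1 without fluoxetine sample 1, and Lama1 and Tnn in every fit, have a group at 0 reads. No fitted value is given for them as single genes. Without vehicle sample 1, Lama1 allows no fold and was set at no difference in the median with bounds. Of the 8 other matrix genes, 8 rather than 7 were lower without fluoxetine sample 2, which carries the high Nov count.

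Against library totals, the scale factors of the other scalings lower a log2 difference by an offset of -0.12 (TMM), -0.13 (listed reads) or -0.05 (DESeq2), and the fitted values of single genes moved by more or less than this offset. The labels do not say that samples of the same number were paired. Their deviations from the group means correlated at 0.645 over 380 transcripts, and since the groups share 2 numbers only, the block stays an alternative. Depth limits Lama1, Tnn and Cthrc1, with 7, 13 and 17 reads in all, and 2 pools per group limit the spread of every gene. Selection of the table on this contrast favours large differences, and how much was not tested.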
